A study of Homo sapiens with 12 samples.

Results

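The DNA replication machinery was followed as 49 genes, taken by name from the count table: 15 that license replication origins, 8 that fire them, 9 subunits of the replicative polymerases, 6 genes of the sliding clamp and its loader, 3 of the single-strand binding complex, 3 that process Okazaki fragments, 4 that protect the moving fork, and MCM8, a relative of the helicase subunits that works outside the core helicase. All 49 were found among the 26481 genes of the table, and all 49 passed the filter on low counts. RNA had been sequenced from HEL, an established human erythroleukemia line used as a model of acute myeloid leukemia (AML), in which the cells carried DNA barcodes so that their descendants could be followed. The 4 conditions gave 12 libraries, each from a culture described as a biological replicate. NT cells (n = 2) had received the solvent dimethyl sulfoxide, Doxo cells (n = 3) the anthracycline doxorubicin at 1.8 µM, Doxo+Cyta cells (n = 3) doxorubicin at 1.8 µM with the nucleoside analogue cytarabine at 6 µM, and Doxo+Cyta+DAC cells (n = 4) both drugs at those doses with the DNA methyltransferase inhibitor decitabine at 0.1 µM. The drugs were present for about 72 hours, dead cells were removed, and the survivors regrew for about 30 days to the number first seeded, so that every drug group is a relapse grown from surviving cells and none was sampled under the drug. No group received decitabine alone, so the comparisons with Doxo+Cyta+DAC hold decitabine on top of the other drugs.

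Replication starts at origins. In G1 the origin recognition complex (ORC1 to ORC6) recruits CDC6 and CDT1, which load the ring of MCM2 to MCM7 on DNA, and geminin (GMNN) holds CDT1 back once S phase has begun. The kinase CDC7 with its activator DBF4 then turns the loaded ring into an active helicase with CDC45 and the GINS complex, DNA polymerase alpha with primase lays down primers, the RFC complex loads the PCNA clamp, and polymerases epsilon and delta copy the strands. Many of these genes are transcribed in late G1 and S phase through E2F transcription factors, so their summed RNA is widely used as a sign of how many cells are cycling. AML cells depend on this machinery while they proliferate, and both cytarabine and decitabine are incorporated by it.

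Promoters of 6 members are printed here. CDC6, MCM10, POLA1 and RFC3 had the largest change of their role group among members with a promoter entry. MCM6 held the most E2F-type letters, and CDT1 moved opposite to the others. MCM6 and CDT1 were added after their values had been seen. Each sequence is the 250 bases before the transcription start in RefSeq on GRCh38.p14, written 5′ to 3′ on the gene's own strand. They lie at chr17:40287629-40287878 (CDC6, plus strand), chr10:13161308-13161557 (MCM10, plus strand), chrX:24693668-24693917 (POLA1, plus strand), chr13:33817899-33818148 (RFC3, plus strand), chr2:135876444-135876693 (MCM6, minus strand) and chr16:88803539-88803788 (CDT1, plus strand). Capitals mark the E2F-type letters TTTCCCGC, TTTGGCGC, TTTCGCGC and TTTGCCGC and the CCAAT box, on either strand, where overlapping matches run together. The start sites of RefSeq need not be those used in HEL cells. For MCM10, RFC3, MCM6 and CDT1, the gene used for counting begins inside the printed window. RFC3 was counted from 33818069, and its E2F-type match lies after that position.
CDC6: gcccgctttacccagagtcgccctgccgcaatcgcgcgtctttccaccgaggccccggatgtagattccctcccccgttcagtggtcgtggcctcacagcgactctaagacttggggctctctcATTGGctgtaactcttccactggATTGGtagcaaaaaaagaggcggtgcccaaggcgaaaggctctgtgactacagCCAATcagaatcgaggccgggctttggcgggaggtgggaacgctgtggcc
MCM10: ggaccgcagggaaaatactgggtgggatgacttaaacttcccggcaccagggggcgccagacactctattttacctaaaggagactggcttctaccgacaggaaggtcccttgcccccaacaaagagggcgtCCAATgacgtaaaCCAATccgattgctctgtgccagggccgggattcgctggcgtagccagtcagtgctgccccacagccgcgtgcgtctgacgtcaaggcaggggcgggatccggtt
POLA1: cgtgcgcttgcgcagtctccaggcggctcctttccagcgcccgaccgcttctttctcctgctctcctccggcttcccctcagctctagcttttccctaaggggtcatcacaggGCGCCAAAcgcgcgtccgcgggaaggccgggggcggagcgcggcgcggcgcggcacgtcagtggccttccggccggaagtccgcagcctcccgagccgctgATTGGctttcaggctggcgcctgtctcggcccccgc
RFC3: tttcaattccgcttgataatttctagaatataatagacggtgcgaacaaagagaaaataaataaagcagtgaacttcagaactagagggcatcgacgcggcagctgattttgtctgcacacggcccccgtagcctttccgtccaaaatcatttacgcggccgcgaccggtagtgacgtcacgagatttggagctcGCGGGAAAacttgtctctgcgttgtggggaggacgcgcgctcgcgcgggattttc
MCM6: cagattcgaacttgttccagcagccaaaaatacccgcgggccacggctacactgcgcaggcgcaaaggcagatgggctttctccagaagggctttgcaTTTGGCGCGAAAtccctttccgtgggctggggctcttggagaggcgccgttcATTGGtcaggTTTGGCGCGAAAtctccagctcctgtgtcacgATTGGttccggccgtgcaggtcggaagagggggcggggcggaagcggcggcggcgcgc
CDT1: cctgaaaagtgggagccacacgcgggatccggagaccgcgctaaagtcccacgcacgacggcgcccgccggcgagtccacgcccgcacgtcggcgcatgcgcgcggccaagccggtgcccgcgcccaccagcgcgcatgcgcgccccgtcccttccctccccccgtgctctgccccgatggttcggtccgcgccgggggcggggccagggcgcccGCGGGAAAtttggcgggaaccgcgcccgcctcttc
The MCM6 promoter held 4 E2F-type matches, which overlap in pairs. POLA1, RFC3 and CDT1 held 1 E2F-type match each, while CDC6 and MCM10 held no exact match in the bases shown and had 3 and 2 CCAAT boxes. Only the exact letters were searched. Near forms, such as the tttggcgg printed for CDC6 and CDT1, were not counted. For CDC6, 1 match lay in the 50 bases after the start, which were searched but are not shown. Of the 49 members, 43 had a promoter of 300 bases in the table, and 19 of these (44.2%) held at least 1 E2F-type match, against 5.20% of the 10261 promoters of tested genes and 3.33% of all 27305 promoters. A CCAAT box was present in 58.1% of the members' promoters and in 36.7% of those of tested genes. By role, E2F-type letters were found in 7 of 13 licensing promoters, 3 of 7 firing promoters, 4 of 8 polymerase promoters and 2 of 6 clamp and loader promoters. These matches are letters in a window and were not tested as binding sites.

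Before the members are compared, 2 libraries need naming. Total counts ran from 12763582 to 19106235 per library. The lowest level a library could show was taken as 3 counts, or 0.157 to 0.235 per 1000000 of its unscaled total. This limit covers counting error only. CPM here are counts per 1000000 counts of tested genes, after scaling. Library distances used the 12076 genes with at least 10 counts in every library, as log2 counts per 1000000 of the library total. Doxo 4 and Doxo+Cyta 20 stood farthest from the other libraries of their group (root-mean-square distance 0.446 and 0.499). The other 10 libraries stood at 0.215 to 0.347. All 9 erythroid and megakaryocytic genes used to check the label HEL were above 1 CPM in every library. Their summed level was lower in Doxo+Cyta+DAC (6089 to 8284 CPM) than in Doxo+Cyta (9509 to 10459 CPM), and its part in the results was not tested. Of the markers of other blood lineages and of epithelium, the B-cell gene CD79A alone reached 1 CPM, in every NT, Doxo and Doxo+Cyta library, and the 5 lineage genes together summed to 0.963 to 6.14 CPM.

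The replication genes stood higher in Doxo+Cyta+DAC relapses than in any other group. The summed level of the 49 members was 6704 to 6947 CPM in the 4 Doxo+Cyta+DAC libraries, 4360 to 4444 CPM in NT, 3399 to 4203 CPM in Doxo+Cyta and 3009 to 4023 CPM in Doxo, so that the lowest Doxo+Cyta+DAC library lay above the highest of the others. In bulk RNA, more cells in S phase and more RNA of these genes per cell cannot be told apart. Within the chemotherapy relapses the 2 libraries named above were the highest. Relative to the NT mean, the median member was at -0.17 log2 in Doxo 4 against -0.69 and -0.54 in Doxo 5 and Doxo 6. It was at -0.10 in Doxo+Cyta 20 against -0.41 and -0.45 in Doxo+Cyta 19 and 22. The 4 Doxo+Cyta+DAC libraries spanned 0.55 to 0.58.

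**Figure D1:**
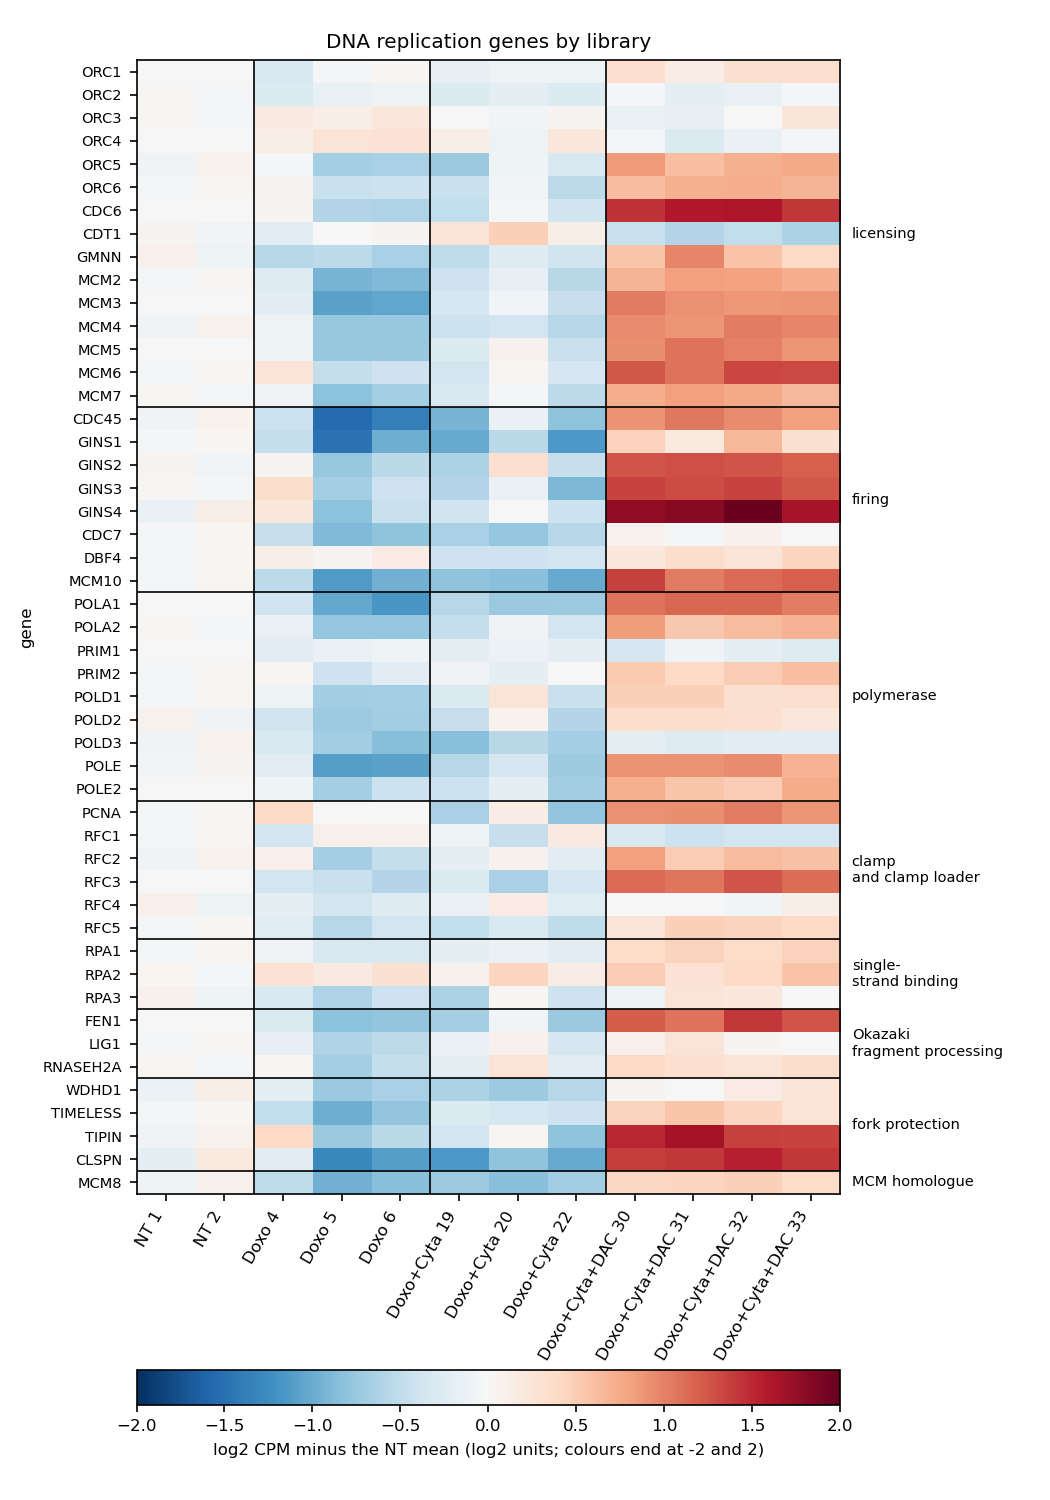
Rows are the 49 replication genes in role order, columns the 12 libraries, and colour is log2 CPM minus the gene's NT mean, in log2 units (red higher, blue lower). The 4 Doxo+Cyta+DAC columns are red for most genes, with CDT1, RFC1, POLD3, PRIM1, ORC2 and ORC4 below 0 in all 4, and Doxo 4 and Doxo+Cyta 20 are paler than the other libraries of their groups.

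Most replication genes stood higher where decitabine had been added to doxorubicin and cytarabine. In Doxo+Cyta+DAC over Doxo+Cyta, 39 of the 49 members rose and 1, CDT1, fell at an adjusted p under 0.05 (edgeR quasi-likelihood test, Benjamini-Hochberg adjustment over 14164 tested genes), where 29.8% of all tested genes were higher and 30.5% lower. The median member changed by 1.01 log2, while the median of all tested genes was 0.00025. At the stricter mark of more than 2-fold and an adjusted p under 0.01, 25 members were higher, where 10.2% of all tested genes were. The stricter count was also 25 over Doxo, where 9.71% of all tested genes were higher. The 9 members that passed in neither direction were RFC1, RFC4, ORC2, ORC3, ORC4, LIG1, RNASEH2A, PRIM1 and RPA2, and their log2 fold changes lay between -0.27 and 0.36. Without Doxo+Cyta 20, ORC4 and RFC1 were called lower and RPA2, LIG1 and RNASEH2A higher.

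The same 4 Doxo+Cyta+DAC libraries were compared with the other 2 groups, so these comparisons are not independent of each other. Over Doxo, 41 members rose and 2 fell (CDT1 and ORC4), with a median of 1.01 log2, where 29.1% of all tested genes were higher and 30.4% lower. Over NT, 32 members rose and 1 fell (CDT1), with a median of 0.63 log2, where 24.9% of all tested genes were higher and 23.7% lower. The NT comparison rests on 2 libraries, and the number of members higher was 22 without NT 1 and 21 without NT 2, where 15.4% and 15.9% of all tested genes were higher, a fit in which the lone NT library is taken to vary like the other groups.

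**Figure D2:**
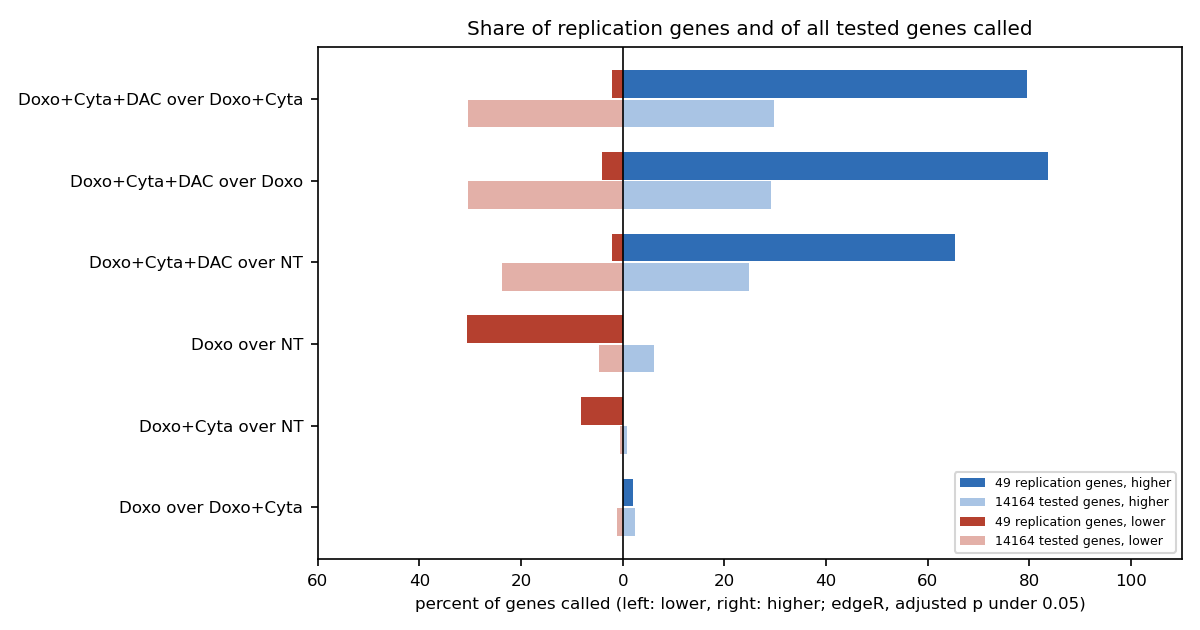
Bars give the percent of the 49 replication genes (dark) and of the 14164 tested genes (pale) called at an adjusted p under 0.05 in each of 6 comparisons, with genes called higher to the right of 0 and genes called lower to the left. The dark bars for higher genes reach 79.6%, 83.7% and 65.3% in the 3 comparisons of Doxo+Cyta+DAC, and in the comparisons of Doxo and Doxo+Cyta with NT all called members are on the left.

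Origin licensing was the role group with members on both sides. Of its 15 genes, 11 rose in Doxo+Cyta+DAC over Doxo+Cyta, 1 fell, and ORC2, ORC3 and ORC4 passed in neither direction. CDC6 (chromosome 17, 40287894 to 40303161 on GRCh38), the loader that brings the helicase ring to the origin, had 51.5 and 52.2 CPM in NT, 53.8, 34.6 and 33.8 CPM in Doxo, 36.7, 50.5 and 39.3 CPM in Doxo+Cyta, against 141, 157, 159.8 and 139 CPM in Doxo+Cyta+DAC. The Doxo+Cyta+DAC libraries were all above every other library, and the fold change over Doxo+Cyta was 1.82 ± 0.17 log2 (SE, adjusted p = 8.4e-07). CDC6 was also higher over NT, by 1.52 ± 0.19 log2 (adjusted p = 3.4e-05).

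CDT1 (chromosome 16, 88803778 to 88809258), CDC6's partner in loading, went the other way. It had 235 and 218 CPM in NT, 196, 226 and 235 CPM in Doxo, 275, 316 and 246 CPM in Doxo+Cyta, against 166, 151, 160.3 and 145 CPM in Doxo+Cyta+DAC. The Doxo+Cyta+DAC libraries were the 4 lowest of the 12, while Doxo+Cyta held the highest. CDT1 fell by 0.84 ± 0.10 log2 over Doxo+Cyta (adjusted p = 1.2e-05), by 0.49 ± 0.10 over Doxo (adjusted p = 0.0011) and by 0.54 ± 0.12 over NT (adjusted p = 0.0018). The change in RNA says nothing of CDT1 protein, whose level is set largely by degradation in S phase. Geminin, the protein that restrains CDT1, had 39.9 and 35 CPM in NT, 25.2, 25.9 and 23.8 CPM in Doxo, 26.3, 31.4 and 28.2 CPM in Doxo+Cyta, against 54.6, 73.8, 55.3 and 49 CPM in Doxo+Cyta+DAC. All Doxo+Cyta+DAC libraries were above all others, and GMNN rose by 1.02 ± 0.14 log2 over Doxo+Cyta (adjusted p = 2.7e-05). The log2 ratio of GMNN to CDT1 CPM, which is not corrected for gene length and is read here for its change alone, averaged -1.43 for Doxo+Cyta+DAC (SD 0.27, n = 4), -3.28 for Doxo+Cyta (SD 0.14, n = 3), -3.13 for Doxo (SD 0.17, n = 3) and -2.60 for NT (SD 0.06, n = 2). Its range in Doxo+Cyta+DAC did not meet that of any other group. That follows from the separation of GMNN and of CDT1 given above and is no further evidence.

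The origin recognition complex did not move as one. ORC5 and ORC6 rose over Doxo+Cyta by 1.09 ± 0.19 and 1.01 ± 0.14 log2 (adjusted p = 0.00022 and 3.8e-05), and ORC1, the subunit whose protein cycles with licensing, by 0.41 ± 0.10 (adjusted p = 0.0033). ORC3 (chromosome 6, 87590067 to 87667454), a core subunit, had 48.4 and 46.6 CPM in NT, 54, 51.8 and 55.4 CPM in Doxo, 47.6, 45.9 and 49.4 CPM in Doxo+Cyta, against 43.1, 42.3, 47.1 and 55.9 CPM in Doxo+Cyta+DAC. The Doxo+Cyta+DAC libraries spanned the range of Doxo+Cyta and NT, and the log2 fold change over Doxo+Cyta was -0.02 ± 0.11 (adjusted p = 0.89). ORC4 had 65.4 and 66.1 CPM in NT, 71.9, 79.3 and 79.9 CPM in Doxo, 72.2, 61.1 and 77.2 CPM in Doxo+Cyta, against 64.6, 54, 59.7 and 64.3 CPM in Doxo+Cyta+DAC. All Doxo libraries lay above all Doxo+Cyta+DAC libraries, and Doxo+Cyta overlapped both. ORC4 fell by 0.35 ± 0.11 log2 in Doxo+Cyta+DAC over Doxo (adjusted p = 0.013), a call lost without Doxo 6, while the value over Doxo+Cyta was -0.21 ± 0.11 (adjusted p = 0.10). Of the exon bases of ORC4, 6.12% overlap ACVR2A, and the counting ignored strand. ORC2 was at 0.14 ± 0.10 log2 over Doxo+Cyta (adjusted p = 0.22).

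The 6 subunits of the helicase ring moved together. MCM2 to MCM7 rose over Doxo+Cyta by 1.01 to 1.46 log2 and over NT by 0.74 to 1.24, each with an adjusted p under 0.05. Per kilobase of exon, MCM2 and MCM3 were the most abundant members in NT, at 105 ± 1.87 and 101 ± 1.24 CPM per kb (SD, n = 2), and in Doxo+Cyta+DAC they stood at 178 ± 8.64 and 192 ± 10.7 CPM per kb (SD, n = 4). MCM6, whose promoter is printed above, had 134 and 138 CPM in NT, 163, 98.1 and 103 CPM in Doxo, 106, 138 and 107 CPM in Doxo+Cyta, against 321, 289, 343 and 339 CPM in Doxo+Cyta+DAC. Its Doxo+Cyta+DAC libraries all lay above the rest, and the rise over Doxo+Cyta was 1.46 ± 0.17 log2 (adjusted p = 5.5e-06). For MCM7, 8.95% of the exon bases overlap AP4M1.

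Origin firing genes showed the highest median of the larger role groups, 1.48 log2 in Doxo+Cyta+DAC over Doxo+Cyta, against 1.02 for licensing, 0.62 for the polymerases and 0.79 for clamp and loader. All 8 rose over Doxo+Cyta, 7 of 8 over Doxo and 6 of 8 over NT. MCM10 (chromosome 10, 13161554 to 13211104), which helps the assembled helicase to start unwinding, had 46.6 and 49.4 CPM in NT, 33.4, 21.8 and 24.6 CPM in Doxo, 27.3, 26.8 and 23.9 CPM in Doxo+Cyta, against 123, 98.2, 105 and 109 CPM in Doxo+Cyta+DAC. The 4 Doxo+Cyta+DAC values were the highest, and those of Doxo and Doxo+Cyta were all below NT. MCM10 rose by 2.07 ± 0.15 log2 over Doxo+Cyta (adjusted p = 1.3e-07) and by 1.18 ± 0.16 over NT (adjusted p = 6.6e-05). CDC45 (chromosome 22, 19479826 to 19520612), a subunit of the active helicase, had 39.6 and 43.6 CPM in NT, 30.7, 14.4 and 16.2 CPM in Doxo, 21.7, 38 and 23.8 CPM in Doxo+Cyta, against 77.2, 86.2, 80.1 and 73.6 CPM in Doxo+Cyta+DAC. Doxo+Cyta 20 lay near NT while the other chemotherapy relapses lay below it, and CDC45 rose by 1.51 ± 0.24 log2 in Doxo+Cyta+DAC over Doxo+Cyta (adjusted p = 0.00010). The GINS genes rose by 1.30 (GINS1), 1.44 (GINS2), 1.82 (GINS3) and 2.06 log2 (GINS4) over Doxo+Cyta, with an adjusted p under 0.05 for each. GINS1 did not pass over NT (0.42 ± 0.23 log2, adjusted p = 0.16), whereas GINS4 had the largest change of any member there, 1.80 ± 0.24 (adjusted p = 5.2e-05).

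The kinase that fires origins differed between its parts. CDC7 (chromosome 1, 91500847 to 91525764), the catalytic subunit, had 56.7 and 59.3 CPM in NT, 42.2, 31.4 and 33.3 CPM in Doxo, 37, 34 and 39 CPM in Doxo+Cyta, against 61, 56.5, 61.7 and 57.8 CPM in Doxo+Cyta+DAC. Doxo+Cyta+DAC overlapped NT, and both stood above the chemotherapy relapses. CDC7 rose by 0.69 ± 0.12 log2 over Doxo+Cyta (adjusted p = 0.00015) and was at 0.03 ± 0.13 over NT (adjusted p = 0.86). DBF4, its activator, had 54.9 and 56.6 CPM in NT, 60.4, 58.1 and 62.7 CPM in Doxo, 41.9, 42 and 42.7 CPM in Doxo+Cyta, against 64.4, 71.5, 66.4 and 75.1 CPM in Doxo+Cyta+DAC. The low group here was Doxo+Cyta alone, with all 3 libraries below the other 9. DBF4 rose in Doxo+Cyta+DAC over Doxo+Cyta (0.72 ± 0.09 log2, adjusted p = 1.9e-05), and with all libraries in the fit it was the one member that edgeR called between the chemotherapy relapses, at 0.52 ± 0.10 log2 in Doxo over Doxo+Cyta (adjusted p = 0.012), where 2.32% of all tested genes were higher and 1.07% lower. That call was lost without Doxo 6, without Doxo+Cyta 19 and when those 2 groups were fitted alone. DBF4 shares 3.81% of its exon bases with SLC25A40.

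Among the polymerases, the catalytic subunits of alpha and epsilon rose most. POLA1 (chromosome X, 24693947 to 24996985), the catalytic subunit of polymerase alpha, had 23.7 and 24.1 CPM in NT, 18.1, 11.8 and 10.6 CPM in Doxo, 16, 14.3 and 14.4 CPM in Doxo+Cyta, against 51, 53, 52.9 and 48.8 CPM in Doxo+Cyta+DAC. The groups were separated, with Doxo+Cyta+DAC above NT and NT above both chemotherapy relapses. POLA1 rose by 1.79 ± 0.16 log2 over Doxo+Cyta (adjusted p = 7.7e-07). PRIM1 (chromosome 12, 56731580 to 56752362), the primase subunit of the same complex, had 72.6 and 73 CPM in NT, 63, 66.5 and 68.7 CPM in Doxo, 63.8, 66.8 and 64.4 CPM in Doxo+Cyta, against 57.6, 69.1, 63.5 and 60.7 CPM in Doxo+Cyta+DAC. All relapse libraries lay below NT, and the 3 relapse groups overlapped, with a log2 fold change of -0.05 ± 0.09 in Doxo+Cyta+DAC over Doxo+Cyta (adjusted p = 0.65). The other subunits were between, POLA2 at 0.98 ± 0.16 (adjusted p = 0.00011) and PRIM2 at 0.60 ± 0.12 log2 (adjusted p = 0.00079). Per kilobase, POLA1 was at 4.39 ± 0.05 CPM per kb in NT (SD, n = 2) and 9.45 ± 0.37 in Doxo+Cyta+DAC (SD, n = 4), whereas PRIM1 was at 49.8 ± 0.18 and 42.9 ± 3.34 CPM per kb, so the gap between these partners was narrower in Doxo+Cyta+DAC.

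POLE (chromosome 12, 132623762 to 132687524), the catalytic subunit of polymerase epsilon, which copies the leading strand, had 108 and 117 CPM in NT, 96.7, 52.6 and 53.4 CPM in Doxo, 75.6, 88.9 and 68.9 CPM in Doxo+Cyta, against 209, 209, 217 and 183 CPM in Doxo+Cyta+DAC. Doxo 4 and Doxo+Cyta 20 were the highest chemotherapy relapses, yet below NT, and POLE rose by 1.39 ± 0.19 log2 in Doxo+Cyta+DAC over Doxo+Cyta (adjusted p = 2.2e-05). Its partner POLE2 rose by 1.05 ± 0.16 (adjusted p = 7.5e-05). The polymerase delta genes POLD1, POLD2 and POLD3 rose less, by 0.53, 0.62 and 0.46 log2 (adjusted p = 0.015, 0.0021 and 0.0094), and none of the 3 passed over NT. POLD1 lost its call over Doxo+Cyta without Doxo+Cyta 19 or 22, and POLD3 without Doxo+Cyta 19.

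The clamp loader also moved unevenly. RFC3 (chromosome 13, 33818069 to 33966558), a small subunit, had 42.5 and 43.2 CPM in NT, 33.1, 31.5 and 28.7 CPM in Doxo, 35, 27.5 and 33.9 CPM in Doxo+Cyta, against 93.9, 90.4, 103 and 93 CPM in Doxo+Cyta+DAC. Each Doxo+Cyta+DAC value was above each of the others, and RFC3 rose by 1.56 ± 0.11 log2 over Doxo+Cyta (adjusted p = 1.5e-07). RFC4 (chromosome 3, 186789893 to 186806695), a neighbour in the same ring, had 90.3 and 78.9 CPM in NT, 74.8, 65.8 and 70.4 CPM in Doxo, 76.1, 94.1 and 71.6 CPM in Doxo+Cyta, against 85.1, 84.4, 81.1 and 91.8 CPM in Doxo+Cyta+DAC. Doxo+Cyta+DAC overlapped NT and Doxo+Cyta but not Doxo, and the value was 0.09 ± 0.11 log2 over Doxo+Cyta (adjusted p = 0.52). RFC4 passed over Doxo at 0.28 ± 0.11 (adjusted p = 0.041), a call lost under upper-quartile scaling, at 0.24, under other filters on low counts, and when Doxo 5, Doxo 6 or Doxo+Cyta+DAC 30, 31 or 33 was left out. The large subunit RFC1 was at -0.27 ± 0.14 log2 over Doxo+Cyta (adjusted p = 0.12), and it was called lower when Doxo+Cyta 20 was left out. RFC2 and RFC5 rose by 0.74 ± 0.16 and 0.84 ± 0.11 log2 (adjusted p = 0.0014 and 2.4e-05). PCNA, the clamp itself, rose by 1.31 ± 0.19 log2 (adjusted p = 4.3e-05), but 26.6% of its exon bases overlap the antisense gene PCNA-AS1, whose reads could not be separated from it.

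**Figure D3:**
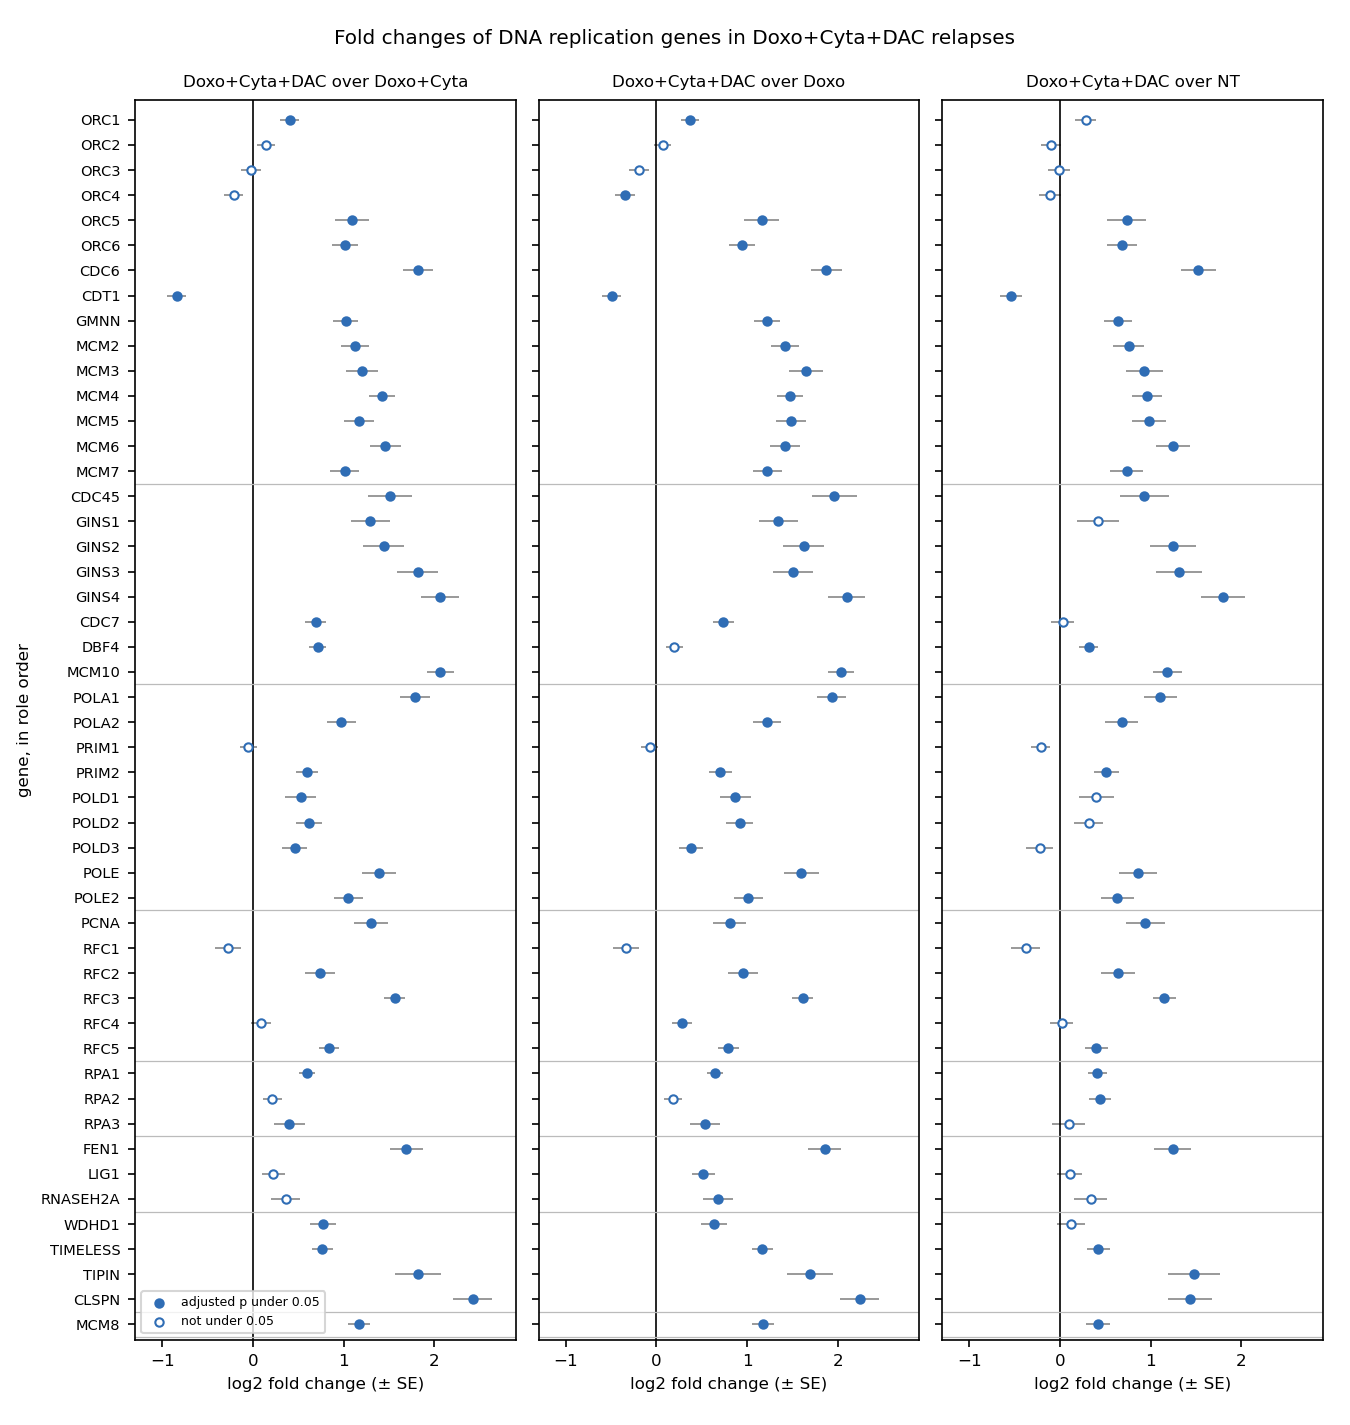
Points are the log2 fold change of each of the 49 genes in Doxo+Cyta+DAC over Doxo+Cyta, Doxo and NT, with bars of 1 SE, filled where the adjusted p (edgeR) was under 0.05. Most points lie to the right of 0, from 0.40 (RPA3) to 2.42 log2 (CLSPN) for those called higher in the left panel, while CDT1 lies to the left in all 3 panels.

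Single-strand DNA is coated by the RPA trimer, which showed smaller values. RPA1, the large subunit, had 141 and 148 CPM in NT, 137, 116 and 116 CPM in Doxo, 126, 131 and 123 CPM in Doxo+Cyta, against 186, 197, 186 and 198 CPM in Doxo+Cyta+DAC. Doxo+Cyta+DAC was the highest group, and RPA1 rose by 0.60 ± 0.09 log2 over Doxo+Cyta (adjusted p = 6.3e-05). RPA2 had 137 and 130.1 CPM in NT, 164, 151 and 164 CPM in Doxo, 142, 179 and 148 CPM in Doxo+Cyta, against 189.5, 163, 176 and 198 CPM in Doxo+Cyta+DAC. All relapse groups overlapped, at 0.22 ± 0.10 log2 in Doxo+Cyta+DAC over Doxo+Cyta (adjusted p = 0.087), whereas over NT RPA2 rose by 0.44 ± 0.12 (adjusted p = 0.0078), a call lost without NT 2. RPA3 passed over Doxo+Cyta at 0.40 ± 0.17 (adjusted p = 0.048), a call that was lost when any of 5 single libraries was left out, and 11.7% of its exon bases overlap UMAD1.

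Of the genes that finish Okazaki fragments, FEN1 stood apart. FEN1 (chromosome 11, 61792637 to 61797242), the flap endonuclease, had 44.4 and 43.6 CPM in NT, 36.2, 24.8 and 25.4 CPM in Doxo, 27.9, 42.5 and 26.3 CPM in Doxo+Cyta, against 101, 92.9, 117 and 105 CPM in Doxo+Cyta+DAC. Doxo+Cyta+DAC was above all other libraries, and FEN1 rose by 1.69 ± 0.18 log2 over Doxo+Cyta (adjusted p = 3.0e-06). LIG1 (chromosome 19, 48115445 to 48170603), the ligase that seals the nick, had 156 and 160.5 CPM in NT, 141, 105 and 110.2 CPM in Doxo, 144, 167 and 125 CPM in Doxo+Cyta, against 169.5, 189, 164 and 157 CPM in Doxo+Cyta+DAC. The highest Doxo+Cyta library reached into the Doxo+Cyta+DAC range, and the value was 0.23 ± 0.13 log2 (adjusted p = 0.13). LIG1 passed over Doxo at 0.52 ± 0.13 (adjusted p = 0.0029), where Doxo 5 and 6 were the lowest libraries. RNASEH2A, the catalytic subunit that removes RNA from hybrids, was at 0.36 ± 0.16 over Doxo+Cyta (adjusted p = 0.064).

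Fork protection held the largest change of all members. CLSPN (chromosome 1, 35732112 to 35769950), claspin, the adaptor that passes the replication checkpoint signal to CHK1, had 36.1 and 47.7 CPM in NT, 35.5, 17.1 and 19.3 CPM in Doxo, 18.8, 23.7 and 20.7 CPM in Doxo+Cyta, against 108, 111, 122 and 111 CPM in Doxo+Cyta+DAC. The lowest Doxo+Cyta+DAC library was above the highest of any other group. CLSPN rose by 2.42 ± 0.22 log2 over Doxo+Cyta (adjusted p = 7.5e-07), by 2.24 ± 0.22 over Doxo (adjusted p = 1.8e-06) and by 1.43 ± 0.24 over NT (adjusted p = 0.00029). TIMELESS (chromosome 12, 56416373 to 56449416), its partner at the fork, had 136 and 142 CPM in NT, 98.5, 70.8 and 80.2 CPM in Doxo, 115, 109 and 104 CPM in Doxo+Cyta, against 188, 203, 186 and 168 CPM in Doxo+Cyta+DAC. Doxo was the lowest group, Doxo+Cyta lay between Doxo and NT, and TIMELESS rose by 0.76 ± 0.11 log2 in Doxo+Cyta+DAC over Doxo+Cyta (adjusted p = 6.1e-05). TIPIN, which binds TIMELESS, rose by 1.82 ± 0.25 (adjusted p = 3.1e-05), and WDHD1, which links the helicase to polymerase alpha, by 0.77 ± 0.14 (adjusted p = 0.00034). MCM8 (chromosome 20, 5950652 to 5995206), which acts in recombination repair, had 41.5 and 46.5 CPM in NT, 30.8, 22.6 and 24.7 CPM in Doxo, 26.6, 24.7 and 27.2 CPM in Doxo+Cyta, against 58.3, 59.1, 61.3 and 56.5 CPM in Doxo+Cyta+DAC. Both chemotherapy relapses were below NT, and MCM8 rose by 1.17 ± 0.12 log2 in Doxo+Cyta+DAC over Doxo+Cyta (adjusted p = 2.1e-06).

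**Figure D4:**
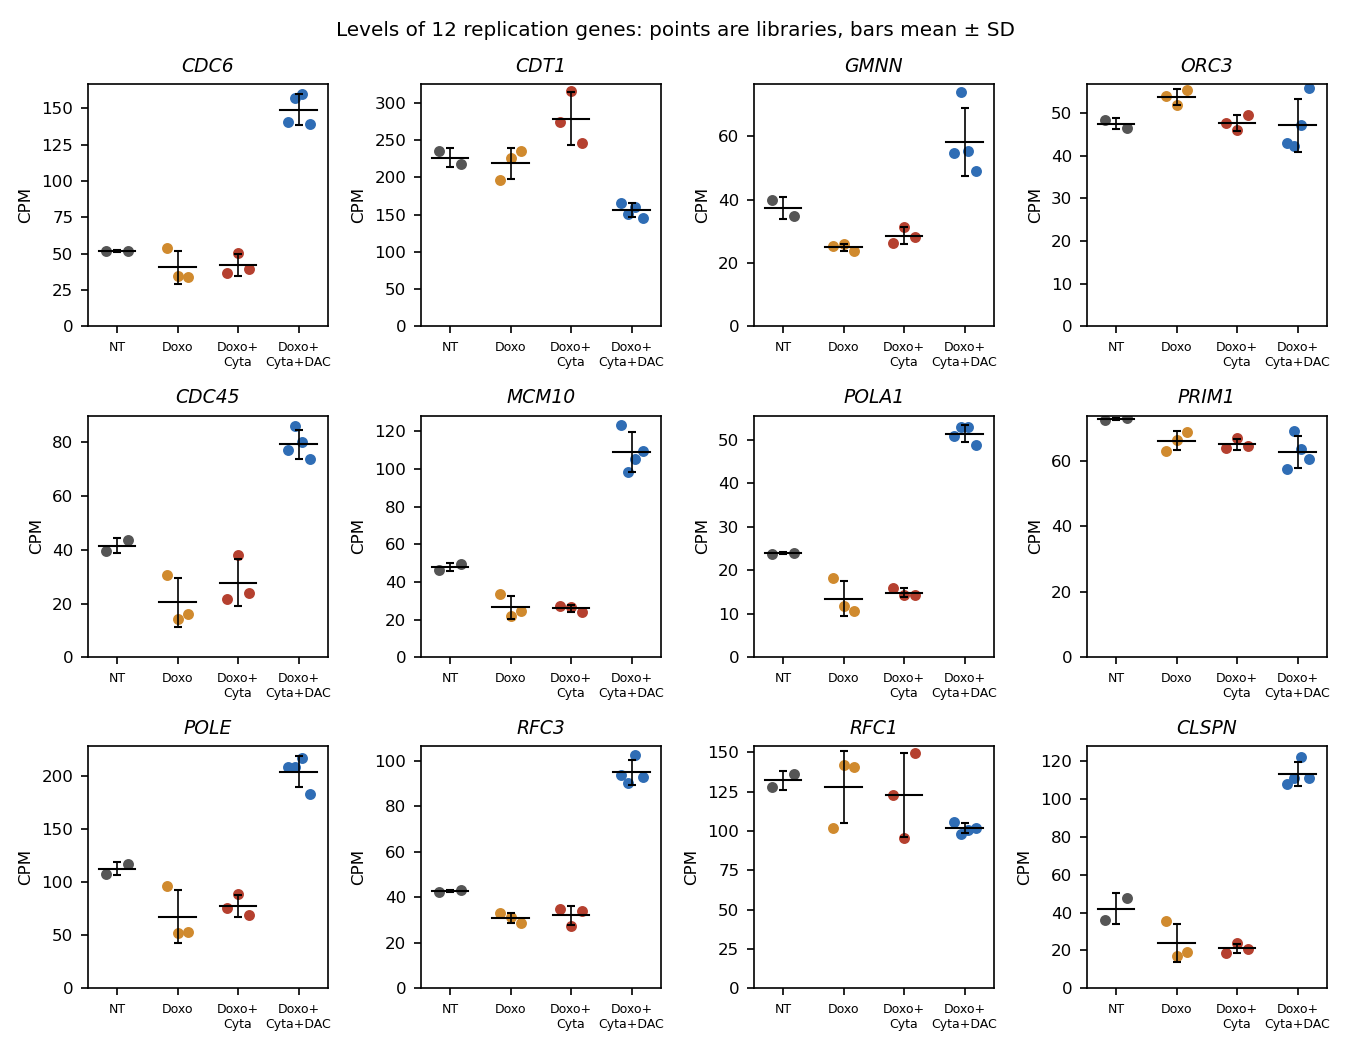
Each panel gives the level of 1 of 12 replication genes in CPM, on an axis from 0, with a point for each library, a long bar for the group mean and error bars of 1 SD (n = 2, 3, 3 and 4). CDC6, CDC45, MCM10, POLA1, POLE, RFC3 and CLSPN are highest in Doxo+Cyta+DAC, CDT1 is lowest there, and ORC3 and PRIM1 show no such separation.

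The E2F-type letters were set beside these values as a description. The 19 members with at least 1 match in their promoter had a median of 1.30 log2 in Doxo+Cyta+DAC over Doxo+Cyta, from -0.84 (CDT1) to 2.42 (CLSPN). The 24 members without a match had a median of 0.70 log2, from -0.27 (RFC1) to 2.07 (MCM10). The ranges of the sets overlapped, and ORC3, at -0.02 log2, and CDT1 held a match while MCM10 did not. Near forms of the letters were not searched, so members without a match may hold them.

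The relapses after chemotherapy alone were compared with untreated cells. In Doxo over NT, 15 members fell, among them CDC45 (-1.03 ± 0.28 log2), GINS1 (-0.93 ± 0.24), MCM10 (-0.85 ± 0.16), POLA1 (-0.83 ± 0.18) and CLSPN (-0.81 ± 0.24), where 4.63% of all tested genes were lower and 6.06% higher (edgeR quasi-likelihood test, adjusted p from 0.0073 to 0.044 for these genes). The others were GMNN, MCM2, MCM3, CDC7, POLD2, POLD3, POLE, RFC3, TIMELESS and MCM8. No member was called higher by edgeR or DESeq2, and none was higher at an unadjusted p under 0.05, where 15.1% of all tested genes were. The number of members called lower moved with single libraries. It was 33 without Doxo 4, where 12.1% of all tested genes were lower, and 4 without Doxo 5 or Doxo 6, where 1.22% and 1.26% were. It was 0 without either NT library, where 0.162% and 0.148% were lower. The median member was at -0.41 log2, and in 30 of 49 genes every Doxo library lay below both NT libraries, where 24.5% of all tested genes did.

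In Doxo+Cyta over NT, 4 members fell: CDC7 (-0.66 ± 0.13 log2, adjusted p = 0.035), MCM10 (-0.88 ± 0.16, adjusted p = 0.026), POLD3 (-0.69 ± 0.16, adjusted p = 0.049) and MCM8 (-0.75 ± 0.14, adjusted p = 0.025), where 0.551% of all tested genes were lower and 0.911% higher. All 4 had also fallen in Doxo over NT, but the comparisons share the NT libraries. None was called higher by edgeR or DESeq2, and 1 member was higher at an unadjusted p under 0.05, where 11.6% of all tested genes were. The median member was at -0.31 log2. The number of members called lower was 7 without Doxo+Cyta 20, where 0.805% of all tested genes were lower, 0 without Doxo+Cyta 19 or 22, 0 without either NT library and 0 when the groups were fitted alone. With Doxo 4 and Doxo+Cyta 20 both left out, a choice made after seeing the data, 39 members were lower in Doxo over NT and 32 in Doxo+Cyta over NT, where 19.1% and 8.35% of all tested genes were lower. In the same fit, 43 members were higher in Doxo+Cyta+DAC over each chemotherapy relapse and 3 were lower, where 33.2% of all tested genes were higher and 33.3% lower over Doxo+Cyta, and 33.7% and 33.9% over Doxo. Between Doxo and Doxo+Cyta, no member was called lower by edgeR with all libraries. DESeq2 called 2 lower, where 2.47% of all tested genes were, and 4 were lower at an unadjusted p under 0.05, where 8.99% were. Without Doxo 4 edgeR called 8 lower in Doxo, where 2.99% of all tested genes were lower.

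Genes that work around the core machinery were read from 4 further lists. Of 19 other replication factors, 14 rose and 1 fell in Doxo+Cyta+DAC over Doxo+Cyta, with a median of 0.75 log2. Among all tested genes, 29.8% were higher and 30.5% lower there. LRWD1, a protein that binds ORC, had the highest value (1.88 ± 0.20 log2, adjusted p = 3.0e-06). MCMBP, which binds MCM subunits, rose by 0.98 ± 0.10 (adjusted p = 3.3e-06), and POLE3, a histone-fold subunit of polymerase epsilon, by 1.05 ± 0.10 (adjusted p = 1.7e-06). POLD4, the smallest subunit of polymerase delta, was the exception. It had 43.4 and 37 CPM in NT, 44.9, 54.5 and 61.2 CPM in Doxo, 51.3, 59.6 and 55.8 CPM in Doxo+Cyta, against 14.1, 20.9, 17.7 and 21.1 CPM in Doxo+Cyta+DAC. The 4 Doxo+Cyta+DAC libraries were the lowest of the 12, and POLD4 fell by 1.59 ± 0.15 log2 over Doxo+Cyta (adjusted p = 1.1e-06) and by 1.13 ± 0.17 over NT (adjusted p = 0.00012), whereas the 3 other delta subunits had risen over Doxo+Cyta.

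Of 7 genes of deoxynucleotide supply, 6 rose over Doxo+Cyta, where 29.8% of all tested genes were higher. Among them, the ribonucleotide reductase subunits RRM1 and RRM2 rose by 0.64 ± 0.08 and 0.59 ± 0.09 log2 (adjusted p = 2.0e-05 and 6.3e-05). RRM2B, the subunit known for its induction by p53, was at 0.38 ± 0.16 (adjusted p = 0.055), and it was called higher without Doxo+Cyta 22 or without Doxo+Cyta+DAC 30. All 8 genes of replication-coupled chromatin assembly rose over Doxo+Cyta, with a median of 1.08 log2, beside the same 29.8% of all tested genes. UHRF1, which brings DNMT1 to newly copied DNA, had 45.1 and 49 CPM in NT, 45.4, 18.7 and 18.6 CPM in Doxo, 24.6, 35.4 and 25 CPM in Doxo+Cyta, against 142, 145, 141 and 125 CPM in Doxo+Cyta+DAC. Doxo+Cyta+DAC lay above all others, and UHRF1 rose by 2.29 ± 0.27 log2 over Doxo+Cyta (adjusted p = 7.2e-06) and by 1.56 ± 0.30 over NT (adjusted p = 0.00083). The chromatin assembly factor subunits CHAF1A and CHAF1B both rose by 1.28 log2 over Doxo+Cyta (adjusted p = 0.00012 and 0.00018).

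Of 10 translesion and alternative polymerase genes, 5 fell and 2 rose in Doxo+Cyta+DAC over Doxo+Cyta, with a median of -0.38 log2, beside 30.5% lower and 29.8% higher among all tested genes. POLI, the translesion polymerase iota, had 19.2 and 20.1 CPM in NT, 14.1, 13.4 and 13.4 CPM in Doxo, 16.3, 13.8 and 14.4 CPM in Doxo+Cyta, against 4.78, 6.74, 5.77 and 6.34 CPM in Doxo+Cyta+DAC. The Doxo+Cyta+DAC libraries were below all others, and POLI fell by 1.33 ± 0.14 log2 over Doxo+Cyta (adjusted p = 2.7e-06) and by 1.74 ± 0.15 over NT (adjusted p = 2.1e-06). POLL, polymerase lambda, which fills gaps in repair, had 38.3 and 35.9 CPM in NT, 36.6, 44.7 and 42 CPM in Doxo, 42.4, 43.1 and 40.8 CPM in Doxo+Cyta, against 19.5, 16.9, 14.3 and 17.2 CPM in Doxo+Cyta+DAC. Its groups were separated in the same way, and POLL fell by 1.31 ± 0.12 log2 over Doxo+Cyta (adjusted p = 9.2e-07). POLK, POLM and POLH fell by 0.88, 0.89 and 0.57 log2 (adjusted p = 0.0044, 6.6e-05 and 0.0012). REV3L, the catalytic subunit of translesion polymerase zeta, rose by 1.04 ± 0.17 (adjusted p = 0.00015), and POLQ, polymerase theta, which joins broken ends, by 0.84 ± 0.13 (adjusted p = 6.3e-05).

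**Figure D5:**
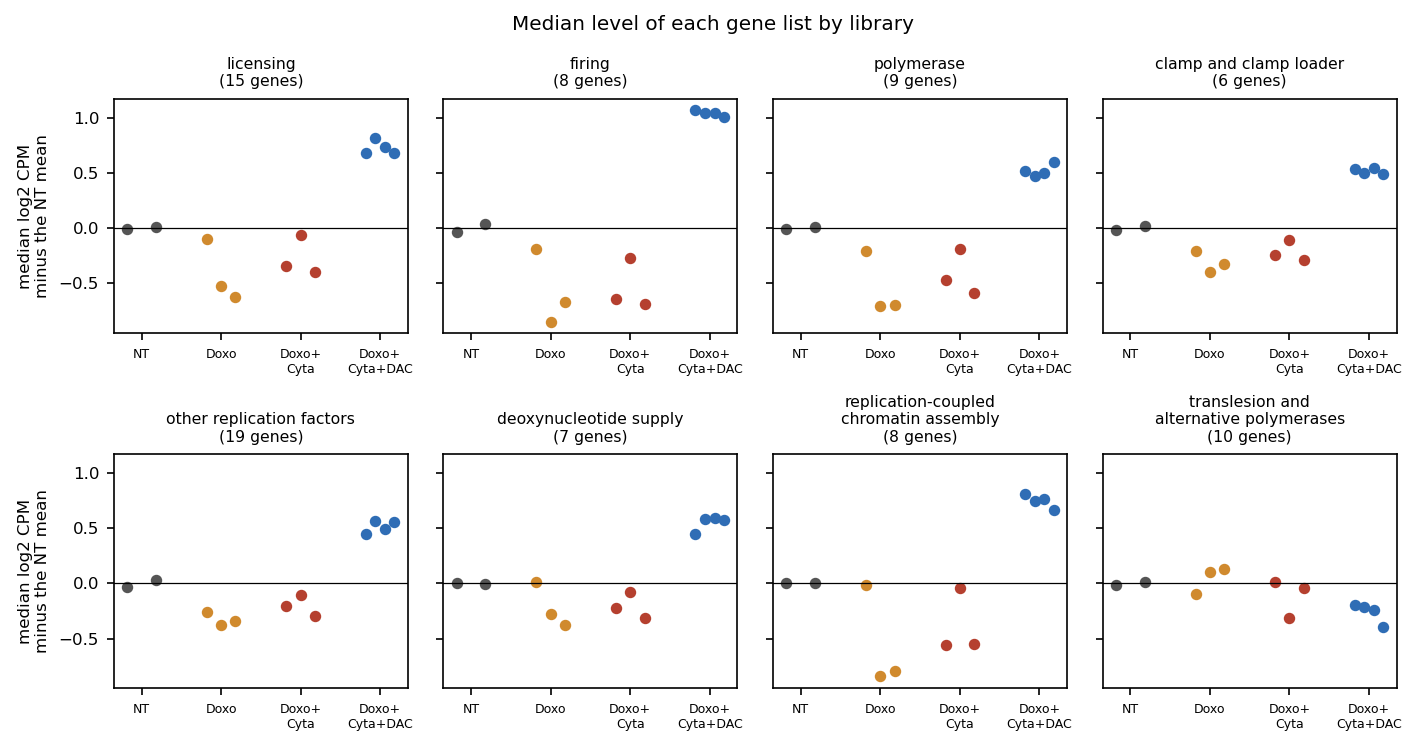
Each panel gives, for 1 gene list, the median over its genes of log2 CPM minus the gene's NT mean, with 1 point per library in the 4 groups. In 7 panels the Doxo+Cyta+DAC points lie above 0 and above the other groups. In the panel of translesion and alternative polymerases they lie below 0, as do some points of the other groups. Doxo+Cyta 20, at -0.32, lies there within their range of -0.39 to -0.19.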

How the data were processed

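RNA of 12 HEL libraries (NT 2, Doxo 3, Doxo+Cyta 3, Doxo+Cyta+DAC 4) was analysed, with groups taken from the sample labels. The authors aligned reads to GRCh38 with Bowtie2 2.2.8 and deposited raw counts, in which featureCounts 1.6.0 assigned read pairs to genes unstranded and dropped chimeric pairs. Bowtie2 does not split reads over exon junctions, so reads across junctions can be lost. Of 26485 genes, 4 lacked a count and were left out. Counts were analysed here with edgeR 4.0.16 in R 4.3.3: filterByExpr kept 14164 genes, libraries were scaled by TMM, and all 12 entered 1 quasi-likelihood fit. Tests were two-sided, with Benjamini-Hochberg adjustment over all tested genes of each comparison and a call at an adjusted p under 0.05. SE is the log2 fold change over the root of F. CPM are per 1000000 counts of the tested genes, TMM-scaled, and CPM per kb divide by exon length. The method was tested on simulated data. Total counts were 12763582 to 19106235. P-values measure the spread between cultures of 1 cell line.

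The members and the gene lists were chosen with earlier results of these data known. By rule, values per library are given for the members with the largest and the smallest change of each role group in Doxo+Cyta+DAC over Doxo+Cyta, for members called against most of their group, and for CDC45, POLA1 and POLE, and each further list is named by its extreme genes, of which 1 is not reported here. GMNN, MCM6, DBF4, POLL and the other genes named from the further lists were added after their values were seen. Promoters come from RefSeq on GRCh38.p14 (250 bases before to 50 after the start), and 6 of the 49 members had no entry. Alternatives were DESeq2 1.42.0, other scalings and low-count filters, fits of 2 groups alone and leaving out single libraries. No 2 libraries of a group were duplicates.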

Additional observations from a re-analysis of the deposited data

Results flagged for a closer look

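One of the 49 members was marked for a library far from the others of its group. ORC1 was at 85.8 CPM in Doxo+Cyta+DAC 31 and at 96.4 to 97.8 CPM in the other 3 Doxo+Cyta+DAC libraries, a gap of 0.886 of the group's range. Chance marks about 1 in 20 groups, and groups of 2 or 3 libraries were not examined. The value in library 31 was still above every NT, Doxo and Doxo+Cyta value of ORC1.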

How the results depend on the processing

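The counts of members higher in Doxo+Cyta+DAC stayed between 36 and 43 over Doxo+Cyta and between 38 and 43 over Doxo under every alternative run. Over NT that count was 21 to 33 when single libraries were left out. Members lower over Doxo+Cyta numbered 3 under upper-quartile scaling, 1 to 3 with single libraries left out and 3 without Doxo 4 and Doxo+Cyta 20 together. Members lower over Doxo numbered 1 to 3 with single libraries left out, and 3 with upper-quartile scaling, with at least 10 counts in every sample, with only these 2 groups fitted and without both libraries. Members lower over NT numbered 3 with upper-quartile scaling, library totals or at least 10 counts, and 2 with no filter or only 2 groups. In Doxo over NT, members lower numbered 7 with only 2 groups, 0 to 33 with single libraries left out and 39 without both libraries. In Doxo+Cyta over NT they numbered 11 with DESeq2, 8 with no filter, 0 with only 2 groups, 0 to 7 with single libraries left out and 32 without both. In Doxo over Doxo+Cyta, higher members numbered 0 with only 2 groups, 0 to 2 with single libraries left out and 2 without both, and lower members 2 with DESeq2, 0 to 8 with single libraries left out and 10 without both. The share of all tested genes called also moved between fits, as given above for some of them. These counts therefore do not show by themselves a change particular to the members. The cause was not tested.

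In the 3 comparisons of Doxo+Cyta+DAC, no called member of the 49 turned sign with DESeq2, another scaling or filter, only 2 groups or a single library left out. Uncalled values turned for 2 members over Doxo+Cyta (ORC3 and RFC4), 0 over Doxo and 4 over NT (ORC3, RFC4, CDC7 and RPA3). With single libraries left out, ORC3 ran from -0.11 to 0.0294 in Doxo+Cyta+DAC over Doxo+Cyta and from -0.105 to 0.0342 over NT, RFC4 from -0.00018 to 0.21 over Doxo+Cyta and from -0.0780 to 0.118 over NT, and CDC7 from -0.0014 to 0.0641 over NT. RFC4 was also at -0.0036 over Doxo+Cyta (upper-quartile), and over NT at -0.0675 (upper-quartile), -0.0834 (totals), -0.0234 (no filter), -0.0237 (at least 10 counts) and -0.0115 (only 2 groups). CDC7 over NT was also at -0.0527 (upper-quartile), -0.0690 (totals), -0.0078 (no filter) and -0.0087 (at least 10 counts). No paired analysis was possible because the groups share no replicate numbers. All members passed the filter on low counts.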
